A study of Homo sapiens with 4 samples.

Results

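The 37 genes described here are the enzymes of glycolysis and a set of genes induced by low oxygen, with their main regulators, measured in SUM159 cells with and without targeting of NOS2. They were taken by symbol from the deposited tables, 37 of 57500 gene rows, and were sorted by role into 4 regulators, 3 transporters, 17 glycolytic enzymes, 3 regulators of glycolytic flux and 10 other hypoxia targets. All 37 were among the 22511 genes that passed the expression filter. SUM159 is a triple-negative breast cancer cell line that the study uses as a model of metaplastic breast cancer (MpBC), and NOS2 encodes the inducible nitric oxide synthase iNOS. Parental SUM159 cells gave 1 library. The NOS2KO group consisted of 3 clones, numbered 1, 5 and 6 in the labels, with 1 library each. The clones grew from cells that had received a NOS2 double nickase plasmid and had survived puromycin, and they were chosen by their iNOS protein on immunoblots and by nitrite and nitrate in a colorimetric assay, so each is a line of its own. All cells were grown in DMEM with serum, and no low-oxygen arm is among the 4 libraries.

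Glycolysis splits glucose into pyruvate, and lactate dehydrogenase then turns pyruvate into lactate, which leaves the cell through a monocarboxylate transporter. The transcription factor subunits HIF-1α (HIF1A) and HIF-2α (EPAS1) are hydroxylated by the EGLN enzymes when oxygen is present and are then destroyed through VHL. When oxygen is short they accumulate as proteins, pair with ARNT and bind short DNA motifs near their targets, among which are most glycolytic enzymes, the glucose transporter SLC2A1, the carbonic anhydrase CA9 and EGLN3 itself. Many cancer lines run glycolysis at a high rate with oxygen present, and NOS2 is itself a known target of HIF-1.

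The core of the motif bound by HIF, ACGTG or GCGTG on either strand, was looked for in the 250 bases before each transcription start listed by RefSeq (GRCh38.p14). It was present before 37 of 62 starts of the 34 member genes found in that table (59.7%) and before 43.2% of all 35116 starts. By role it was present before 8 of 9 starts of the other hypoxia targets and 19 of 37 starts of the glycolytic enzymes. Counted by gene, with a match before at least 1 start, these were 7 of 8 other hypoxia targets and 14 of 17 glycolytic enzymes. Such a match was found for 28 of the 34 member genes and for 12945 of the 27305 genes with a start used. A gene with more listed starts has more chances of a match, and no difference between these shares was tested. The windows of 4 genes on which the results turn are printed. CA9 (chr9:35673678-35673927, plus strand) had 1 match and BNIP3 (chr10:131981924-131982173, minus strand) had 6, and both genes were higher than in the parental library in clone 1 alone. ALDOC (chr17:28576896-28577145, minus strand) had 5 matches and was higher in all clones, while EPAS1 (chr2:46297157-46297406, plus strand) had 1 match and was lower in all clones. Sequences run 5′ to 3′ toward the RefSeq start, and capitals mark the matches. The letters ACGTG are also part of the palindrome CACGTG, the E-box bound by other factors, which then counts as a match on each strand and occurs once each in ALDOC and BNIP3. A match is only a description of these letters, and EGLN3 and SLC2A1 had none in the same window.
CA9: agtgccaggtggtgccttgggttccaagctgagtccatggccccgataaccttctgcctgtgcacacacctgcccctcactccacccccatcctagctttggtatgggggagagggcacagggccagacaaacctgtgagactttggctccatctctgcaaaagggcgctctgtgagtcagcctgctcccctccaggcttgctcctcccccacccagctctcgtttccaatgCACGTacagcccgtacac
BNIP3: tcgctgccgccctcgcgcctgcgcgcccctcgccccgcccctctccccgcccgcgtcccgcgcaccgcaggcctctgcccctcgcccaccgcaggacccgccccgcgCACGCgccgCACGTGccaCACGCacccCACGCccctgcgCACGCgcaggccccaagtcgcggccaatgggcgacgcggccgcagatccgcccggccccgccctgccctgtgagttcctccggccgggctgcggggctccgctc
ALDOC: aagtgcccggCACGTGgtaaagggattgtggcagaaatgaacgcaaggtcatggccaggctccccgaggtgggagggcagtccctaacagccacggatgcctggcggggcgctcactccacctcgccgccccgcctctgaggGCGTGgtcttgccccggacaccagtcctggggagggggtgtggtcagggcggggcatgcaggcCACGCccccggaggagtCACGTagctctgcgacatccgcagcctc
EPAS1: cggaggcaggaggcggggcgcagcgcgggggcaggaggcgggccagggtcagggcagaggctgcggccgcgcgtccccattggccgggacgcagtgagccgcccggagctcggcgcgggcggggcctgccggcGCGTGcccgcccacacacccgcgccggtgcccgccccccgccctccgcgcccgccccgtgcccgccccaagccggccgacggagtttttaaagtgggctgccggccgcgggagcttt

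The libraries held 90467395 to 122171287 counts on genes, so that 3 counts, taken as the floor, correspond to 0.0262 to 0.0332 counts per 1e6 (CPM), relative to the library size after TMM scaling, which adjusts for differences in RNA composition. NOS2 itself had 2 counts in parental cells and 3, 18 and 1 counts in clone 1, the library labelled clone 5 and clone 6. NOS2 mRNA therefore does not check the labels, and the wording "the library labelled clone 5" is kept. Where the clones are listed by number, 5 is that library. Of the markers of the line, VIM was at 1654 to 3854 CPM, KRT8 and KRT18 were detected, and ESR1 and PGR were below 1 CPM in every library. ERBB2, listed beforehand as a gene expected to be low, was at 48.3 CPM in the parental library and 55.6 to 106 CPM in the clones. Markers of other cell types were near 0 for T cells (CD3E) and macrophages (CD68), whereas PECAM1 was at 7.06 to 16.1 CPM and PTPRC, which encodes the leukocyte protein CD45, was at 4.45 CPM in the parental library and 41.7 to 105 CPM in the clones. Their part in the values below was not tested.

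The comparison asks which of these genes differ between cells targeted at NOS2 and the parental line. It was tested by the quasi-likelihood method of edgeR on all 22511 genes, with p-values adjusted after Benjamini and Hochberg (the edgeR adjusted p). Fitted log2 fold changes refer to the clones' mean level, in which clones with high values count for more. With 1 parental library, only the clones gave the spread (2 residual degrees of freedom), and the smallest p of an exact permutation over these libraries is 0.25. At an edgeR adjusted p under 0.05, 0 members and 0.00444% of all tested genes were called. The unadjusted edgeR p was under 0.05 for 4 members (EPAS1, SLC2A3, CA12 and ALDOC) and for 11.5% of all tested genes. The study's criterion for this experiment, which asks for an unadjusted p under 0.05 together with a change of more than 1 on the log2 scale, was met by 2 lower genes, EPAS1 and SLC2A3, and by 1 higher gene, ALDOC. The criterion was met by 5.34% of all tested genes with lower and 4.24% with higher levels, so 2 and 1 of 37 are near the background. DESeq2's Wald test gave an adjusted p under 0.05 for SLC2A3 and ALDOC, where 3.05% (lower) and 3.13% (higher) of the genes it tested were called.

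The clones did not move together. Relative to the parental library, 14 of 37 members were more than 2-fold higher in clone 1 and 2 were more than 2-fold lower, against 17.1% and 20.2% of all tested genes. In the library labelled clone 5 these counts were 2 and 6 (21.3% and 14.7% of all tested genes), and in clone 6 they were 3 and 7 (19.3% and 16.7%). The median log2 ratio of the 37 genes was 0.47, -0.09 and -0.38 in clone 1, the library labelled clone 5 and clone 6, where the medians of all tested genes were -0.07, 0.02 and 0.00. The members were abundant genes, and of the tested genes that reached 10 CPM in any library, 11.6% were more than 2-fold higher in clone 1. All 3 clones were higher than the parental library for 12 members (32.4%) and lower for 8 (21.6%), shares close to those of all tested genes (28.6% and 30.5%). With a margin of 0.5 on the log2 scale in every clone, 4 members were higher (EGLN3, ALDOC, TPI1 and GAPDH) and 5 lower (EPAS1, SLC2A3, HK2, CA12 and BNIP3L), where 14.8% and 14.2% of all tested genes were. A further 12 members (32.4%) were above the parental level in clone 1 and below it in the other clones, an arrangement found for 8.47% of all tested genes and picked out after the values were seen (9 members with upper quartile scaling and 11 with library size scaling). In bulk RNA, fewer cells that express a gene and less RNA per cell cannot be told apart.

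**Figure D1:**
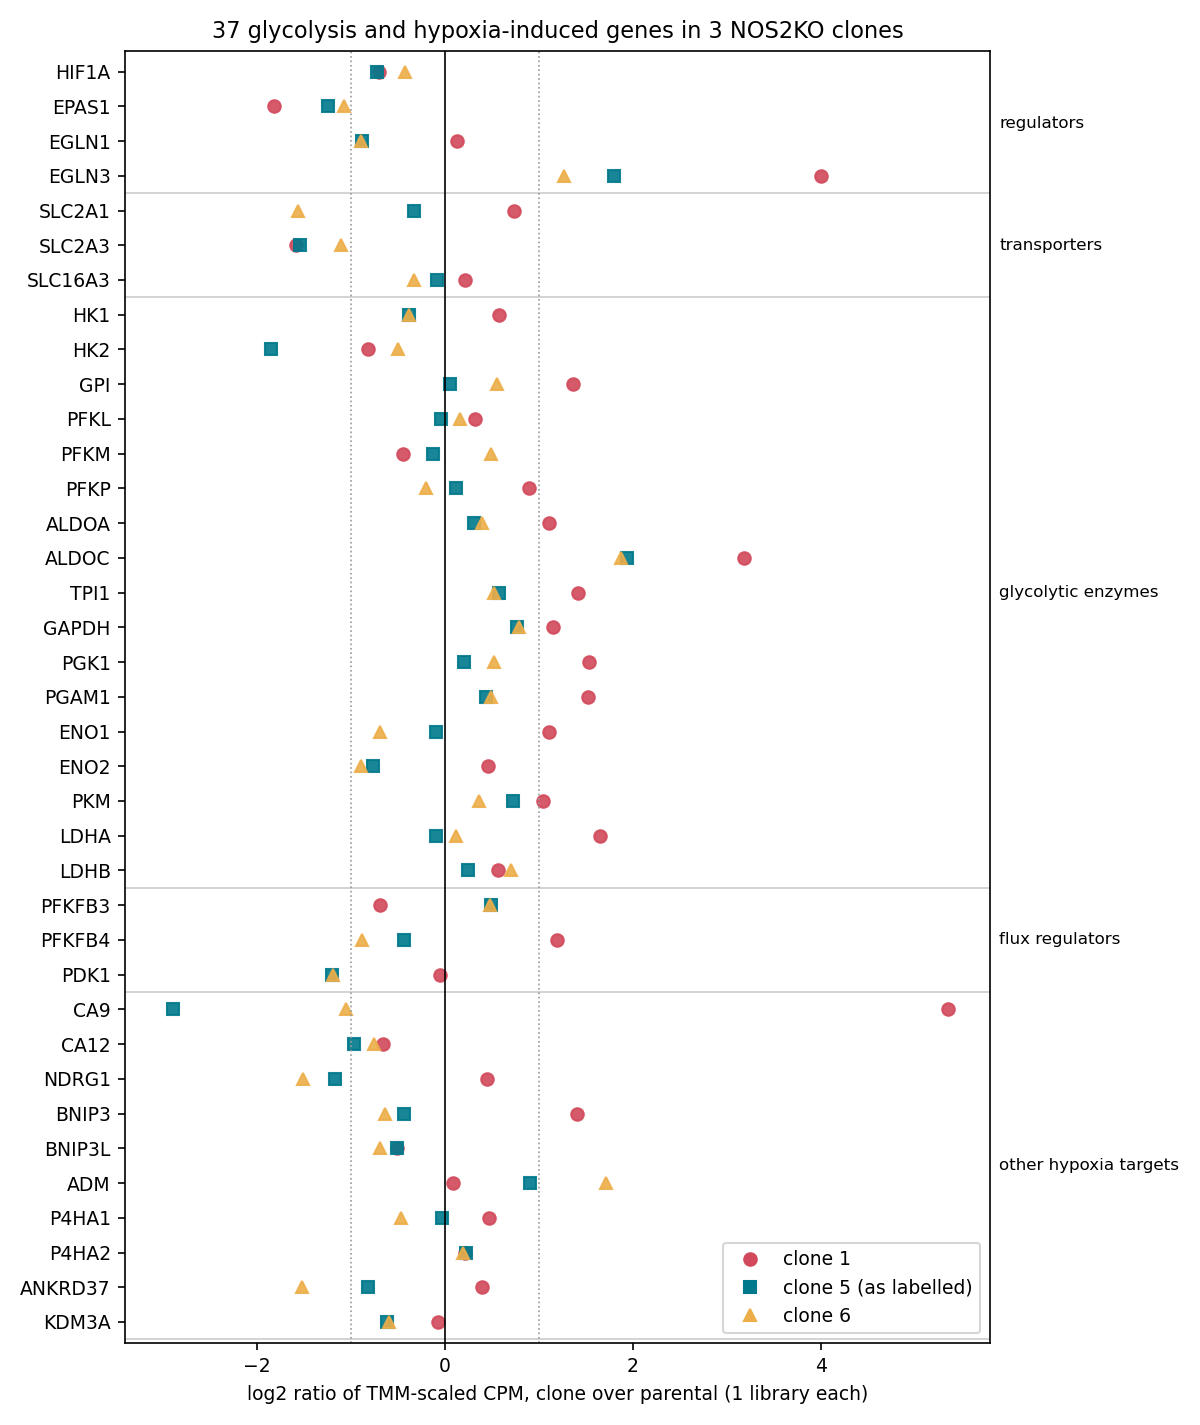
The log2 ratio of TMM-scaled CPM of each NOS2KO clone to the parental library (x axis) for the 37 genes (rows, grouped by role), 1 point per clone and 1 library per point, with dotted lines at 2-fold. Clone 1 lies furthest to the right for most glycolytic enzymes and for CA9 (5.36), and all 3 clones lie to the left for EPAS1 and SLC2A3.

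Among the regulators, both HIF α subunits were at lower mRNA levels in every clone. EPAS1 (ENSG00000116016, chr2:46293667-46386703 of GRCh38, the build of all gene positions given), which encodes HIF-2α, was at 433 CPM in parental cells and 123, 183 and 205 CPM in clone 1, the library labelled clone 5 and clone 6. Every clone was below the parental value by at least 2.11-fold, and the mean of the clones was 170.3 ± 42.5 CPM (SD, n = 3). EPAS1 had a log2 fold change of -1.35 (standard error 0.39, edgeR adjusted p = 0.345). HIF1A (ENSG00000100644, chr14:61695513-61748259) was at 744 CPM in parental cells and 459, 450 and 553 CPM in clone 1, the library labelled clone 5 and clone 6. The clones did not overlap the parental value, and the difference was smaller than that of EPAS1, at a fitted log2 fold change of -0.61 (standard error 0.32, edgeR adjusted p = 0.516). Per kilobase of exon, HIF1A made up 70.9% of the summed level of the 2 genes in the parental library and 77.8% to 84.1% in the clones. The 20 tested genes nearest to HIF1A had a median log2 ratio of 0.02, -0.83 and -0.48 in clone 1, the library labelled clone 5 and clone 6, and around EPAS1 these medians were 0.43, -0.11 and -0.14, and the part of the neighbourhood in either result was not tested.

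The EGLN genes encode the oxygen-sensing prolyl hydroxylases that mark HIF α for destruction. EGLN3 (ENSG00000129521, chr14:33924231-34462774), which HIF also induces, was at 9.08 CPM in parental cells and 146, 31.7 and 21.8 CPM in clone 1, the library labelled clone 5 and clone 6. All clones were above the parental library, by 16.1-fold in clone 1 and by 3.49-fold and 2.40-fold in the others, and the spread between the clones was as wide as their mean (66.5 ± 69.0 CPM, SD, n = 3). Its log2 fold change of 2.87 (standard error 1.15) had an edgeR adjusted p of 0.498. EGLN1, the hydroxylase that sets HIF levels in most cells, had log2 ratios of 0.13, -0.88 and -0.89 in clone 1, the library labelled clone 5 and clone 6.

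Beyond the members, 12 genes that partner HIF or control its turnover had been listed, of which 11 were tested. Among them 2 met the criterion with lower levels and 1 with a higher level, where 5.34% and 4.24% of all tested genes did. SIAH2, a ubiquitin ligase that acts on EGLN proteins, was at 89.0 CPM in the parental library and at 48.2, 31.9 and 18.5 CPM in clones 1, 5 and 6 (log2 fold change -1.44, standard error 0.57, edgeR adjusted p = 0.420). VHL, the recognition subunit of the ligase that destroys HIF α, was at 166 CPM in the parental library and 61.8, 86.4 and 95.3 CPM in clones 1, 5 and 6 (-1.03, standard error 0.35, edgeR adjusted p = 0.379). RBX1, a RING subunit of the same ligase, was higher, at 29.6 CPM against 69.8, 52.0 and 58.9 CPM (1.03, standard error 0.30, edgeR adjusted p = 0.367). None of the 3 had an adjusted p under 0.05 in edgeR or DESeq2.

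SLC2A1 and SLC2A3 encode glucose transporters, and SLC16A3 encodes a monocarboxylate transporter that exports lactate. SLC2A3 (ENSG00000059804, chr12:7919230-7936275), which encodes the high-affinity transporter GLUT3, was at 327 CPM in parental cells and 109, 112 and 151 CPM in clone 1, the library labelled clone 5 and clone 6. The clones lay close together (124.1 ± 23.7 CPM, SD, n = 3) and all below the parental library. SLC2A3 had a log2 fold change of -1.40 (standard error 0.33), with an edgeR adjusted p of 0.327 and a DESeq2 adjusted p of 0.0285. The 20 nearest tested genes had a median log2 ratio of -0.93, -0.18 and 0.23 in clone 1, the library labelled clone 5 and clone 6, so in clone 1 the neighbourhood was lower too.

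SLC2A1 (ENSG00000117394, chr1:42925375-42959173), which encodes GLUT1, went in different directions between the clones. It was at 224 CPM in parental cells and 375, 179 and 76.0 CPM in clone 1, the library labelled clone 5 and clone 6. Its parental value lay within the range of the clones, and the fit gave a log2 fold change of -0.10 (standard error 0.88, edgeR adjusted p = 0.975). Per kilobase of exon, SLC2A1 made up 46.2% of the summed level of both glucose transporters in parental cells and 81.2%, 66.6% and 38.6% in clone 1, the library labelled clone 5 and clone 6. SLC16A3 had log2 ratios of 0.22, -0.08 and -0.33 in clones 1, 5 and 6.

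**Figure D2:**
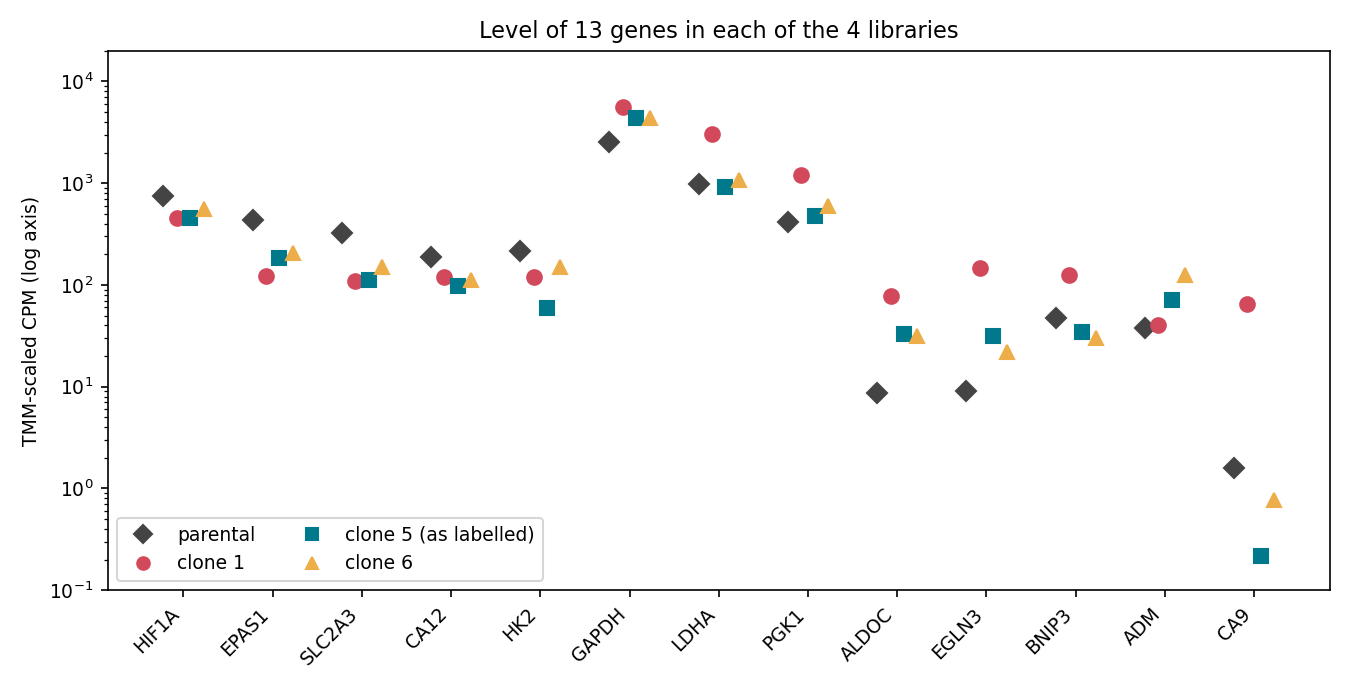
TMM-scaled CPM (y axis, log scale) of 13 genes in each of the 4 libraries, 1 point per library. The parental point lies above all clones for HIF1A, EPAS1, SLC2A3, CA12 and HK2 and below all clones for GAPDH, PGK1, ALDOC, EGLN3 and ADM, while for BNIP3 and CA9 clone 1 lies above and the other clones below it.

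The 17 glycolytic enzymes were together at 12520 CPM in parental cells and 27461, 15762 and 15014 CPM in clone 1, the library labelled clone 5 and clone 6. This was 1.25% of all counts in parental cells and 2.58%, 1.66% and 1.52% in clone 1, the library labelled clone 5 and clone 6. Clone 1 thus held more than 2-fold the parental level (log2 ratio 1.13), and the other clones were 0.33 and 0.26 above it. By gene, 10 of the 17 were more than 2-fold higher in clone 1, while in each of the other clones 1 was, ALDOC. Of all tested genes, 17.1%, 21.3% and 19.3% were more than 2-fold higher in clones 1, 5 and 6. Among tested genes that reached 10 CPM in any library, the share in clone 1 was 11.6%. The median log2 ratio of the 17 enzymes was 1.11, 0.11 and 0.40 in clone 1, the library labelled clone 5 and clone 6. The median of their fitted log2 fold changes was 0.65, beside 0.10 for all tested genes. In all 3 clones 9 of the 17 were higher than in the parental library (10 with library size scaling and 11 with upper quartile scaling) and 1, HK2, was lower. Of all tested genes, 28.6% were higher and 30.5% lower in all 3 clones.

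Hexokinase phosphorylates glucose in the first step. HK2 (ENSG00000159399, chr2:74833981-74893359), the hexokinase typical of tumour cells and a HIF target, was at 213 CPM in parental cells and 121, 59.2 and 151 CPM in clone 1, the library labelled clone 5 and clone 6. All clones were lower, by 1.42-fold to 3.61-fold, and the log2 fold change was -0.95 (standard error 0.57, edgeR adjusted p = 0.548). HK1, the isoenzyme found in most tissues, had log2 ratios of 0.58, -0.38 and -0.38 in clones 1, 5 and 6. Per kilobase of exon, HK2 made up 46.3% of both hexokinases in parental cells and 24.6%, 23.7% and 44.3% in clone 1, the library labelled clone 5 and clone 6.

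GPI (ENSG00000105220, chr19:34359480-34402156), which converts glucose 6-phosphate to fructose 6-phosphate, was at 407 CPM in parental cells and 1046, 422 and 596 CPM in clone 1, the library labelled clone 5 and clone 6. The log2 fold change was 0.76 (standard error 0.58, edgeR adjusted p = 0.659), and the library labelled clone 5 was above the parental library by 0.05 on the log2 scale only. The phosphofructokinases, which commit the sugar to glycolysis, had ratios in no common direction, with PFKL between -0.04 and 0.32, PFKM between -0.44 and 0.49 and PFKP between -0.20 and 0.90 on the log2 scale. PFKP, the platelet form, made up 50.8% of the 3 per kilobase of exon in parental cells and 65.1%, 54.2% and 42.1% in clone 1, the library labelled clone 5 and clone 6.

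Aldolase splits the sugar into triose phosphates. ALDOC (ENSG00000109107, chr17:28573115-28577264), the aldolase best known from brain and a HIF target, was at 8.61 CPM in parental cells and 78.3, 32.9 and 31.5 CPM in clone 1, the library labelled clone 5 and clone 6. It was higher in every clone, by 9.10-fold, 3.83-fold and 3.67-fold. The log2 fold change was 2.47 (standard error 0.63), with an edgeR adjusted p of 0.360 and a DESeq2 adjusted p of 0.0160. The 20 nearest tested genes had median log2 ratios of 0.21, -0.11 and -0.03, well below those of ALDOC itself. Of its exon length, 10.1% overlaps a gene on the other strand, and reads on either strand cannot be told apart where counting is not stated to use strand. ALDOA, the main form, was at 975 CPM in the parental library and at 1213 to 2099 CPM in the clones. Per kilobase of exon, ALDOC made up 1.82% of both aldolases in the parental library and 4.90% to 7.27% in the clones.

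The triose steps were higher in all clones. TPI1 (ENSG00000111669, chr12:6867119-6870948), which interconverts the triose phosphates, was at 391 CPM in parental cells and 1039.8, 584 and 559.8 CPM in clone 1, the library labelled clone 5 and clone 6. For TPI1 the log2 fold change was 0.90 (standard error 0.49, edgeR adjusted p = 0.551). GAPDH (ENSG00000111640, chr12:6533927-6538374), which oxidises glyceraldehyde 3-phosphate, was at 2547 CPM in parental cells and 5659, 4330 and 4396 CPM in clone 1, the library labelled clone 5 and clone 6. The clones were above the parental library by 2.22-fold, 1.70-fold and 1.73-fold, at a fitted log2 fold change of 0.91 (standard error 0.39, edgeR adjusted p = 0.479). Both genes lie on the short arm of chromosome 12. The 20 tested genes around TPI1 had median log2 ratios of 0.18, 0.57 and 0.46 in clones 1, 5 and 6, beside 1.41, 0.58 and 0.52 for TPI1, and those around GAPDH had -0.24, 0.40 and 0.52, beside 1.15, 0.77 and 0.79 for GAPDH, 14.2% of whose exon length overlaps a gene on the other strand. In clone 6 and the library labelled clone 5 TPI1 was thus at the level of its neighbours, and in clone 1 it was above them.

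PGK1 (ENSG00000102144, chrX:78065188-78129296), which makes the first ATP of the pathway, was at 418 CPM in parental cells and 1209.5, 480 and 599 CPM in clone 1, the library labelled clone 5 and clone 6. PGAM1 (ENSG00000171314, chr10:97426160-97433441), which moves the phosphate of phosphoglycerate, was at 196 CPM in parental cells and 562, 265 and 275 CPM in clone 1, the library labelled clone 5 and clone 6. Both showed clone 1 near 2.9-fold and the other clones at most 1.43-fold above the parental library. The log2 fold changes were 0.87 (standard error 0.61, edgeR adjusted p = 0.631) for PGK1 and 0.91 (standard error 0.55, edgeR adjusted p = 0.582) for PGAM1. Enolase makes phosphoenolpyruvate, and ENO1, which held over 99.3% of both enolases per kilobase of exon, had log2 ratios of 1.11, -0.09 and -0.69 in clones 1, 5 and 6.

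At the end of the pathway, PKM, the pyruvate kinase, had log2 ratios of 1.04, 0.73 and 0.36. LDHA, the lactate dehydrogenase subunit induced by HIF, was at 979.5 CPM in parental cells and 3068, 919 and 1064 CPM in clone 1, the library labelled clone 5 and clone 6, so clone 1 alone stood apart. LDHB, the subunit typical of heart, had log2 ratios of 0.57, 0.25 and 0.70. LDHA made up 46.2% of both subunits per kilobase of exon in parental cells and 64.5%, 40.4% and 36.4% in clone 1, the library labelled clone 5 and clone 6. Rows annotated as pseudogenes of these enzymes held under 1% of the counts on gene and pseudogenes together in every library. The treatment of reads with several matches is not given, so this share does not show how many reads were shared or lost.

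**Figure D3:**
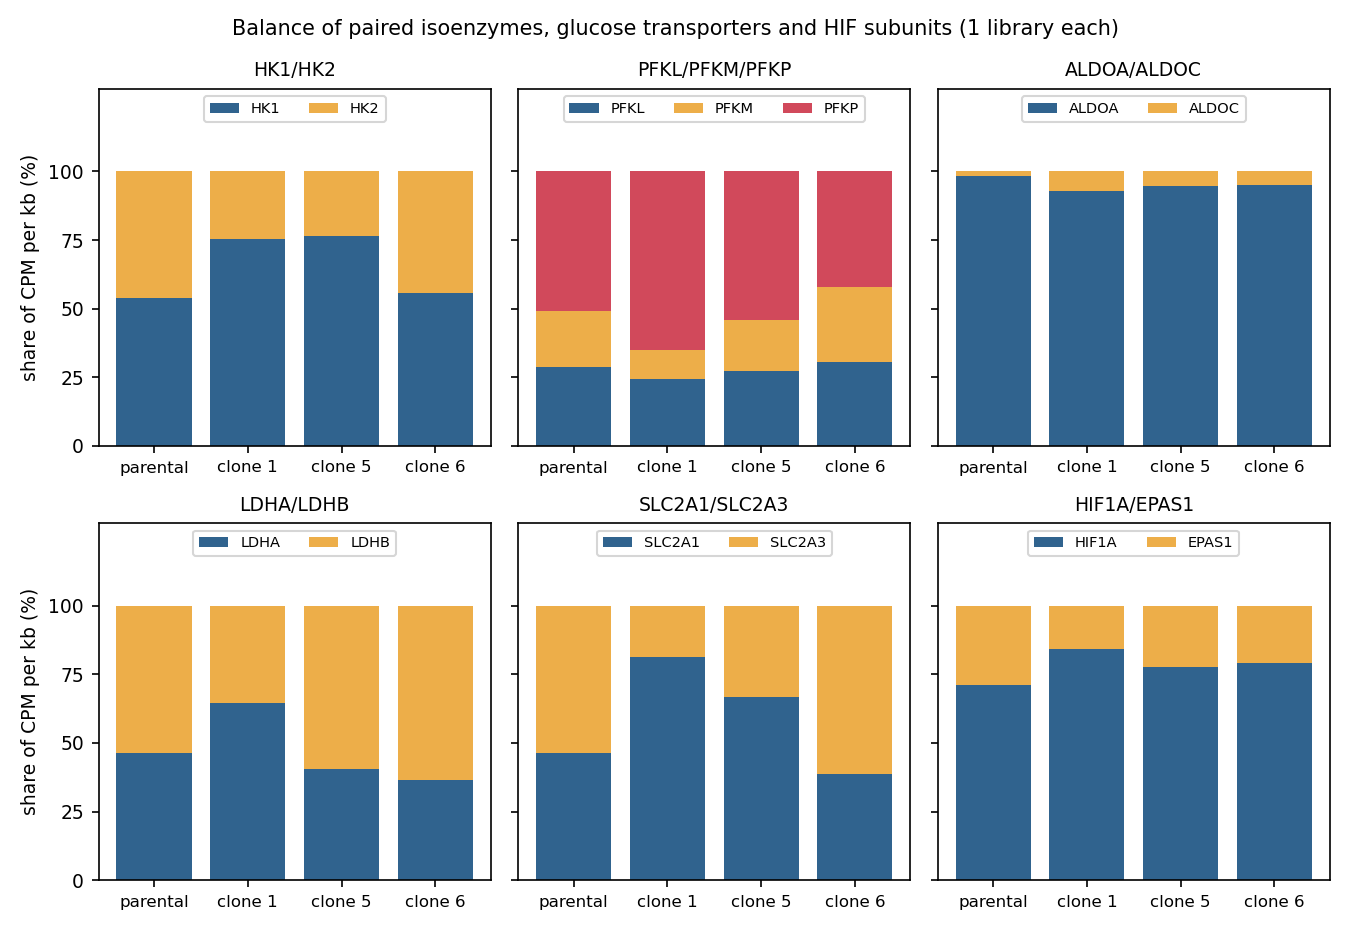
Share of TMM-scaled CPM per kilobase of exon (y axis, percent) that each member of a family holds in each library (x axis), stacked to 100%, 1 library per bar. The share of HK2 was 46.3% in the parental library and 23.7% to 44.3% in the clones, and LDHA and SLC2A1 held their largest shares, 64.5% and 81.2%, in clone 1.

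The regulators of flux had no common direction. PFKFB4 (ENSG00000114268, chr3:48517684-48562015), which makes and removes the fructose 2,6-bisphosphate that stimulates phosphofructokinase, was at 13.5 CPM in parental cells and 30.7, 9.98 and 7.30 CPM in clone 1, the library labelled clone 5 and clone 6. Clone 1 was above the parental library and the other clones below it, at a fitted log2 fold change of 0.25 (standard error 0.90, edgeR adjusted p = 0.933). Its relative PFKFB3 was arranged the other way, with log2 ratios of -0.69, 0.49 and 0.48 in clone 1, the library labelled clone 5 and clone 6. PDK1, a kinase that inactivates pyruvate dehydrogenase, had log2 ratios of -0.05, -1.20 and -1.19.

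The 10 other hypoxia targets differed from the enzymes in that most were below the parental level outside clone 1. Their median log2 ratio was 0.31, -0.56 and -0.67 in clone 1, the library labelled clone 5 and clone 6, and the median of the fitted log2 fold changes was -0.18, against 0.65 for the glycolytic enzymes. The difference between these medians is a description of 2 sets of genes and was not tested. In clone 1, 7 of the 10 were above the parental library, and in each of the other clones 8 of the 10 were below it. Of all 22511 tested genes, 10547 were above the parental library in clone 1, and 10911 and 11230 were below it in clones 5 and 6. The summed level of the 10 targets was 724 CPM in parental cells and 838, 569 and 597 CPM in clone 1, the library labelled clone 5 and clone 6.

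CA9 (ENSG00000107159, chr9:35673856-35681159), a carbonic anhydrase of the cell surface and among the most widely used marker genes of HIF-1 activity, had 145 counts in parental cells and 7530, 23 and 76 counts in clone 1, the library labelled clone 5 and clone 6. This was 1.60, 65.6, 0.216 and 0.771 CPM. Clone 1 was 40.9-fold above the parental library (log2 ratio 5.36, exact 95% interval 5.12 to 5.60), the library labelled clone 5 was below it (-2.89, interval -3.60 to -2.25), and so was clone 6 (-1.06, interval -1.48 to -0.65). These intervals cover counting error only. The widest interval of any other member, that of ANKRD37, had a half-width of 0.28. The parental value lay within the range of the clones, and the fitted log2 fold change of 3.79 (standard error 2.87, edgeR adjusted p = 0.713) rests on clone 1, without which it is -1.70. Of the exon length of CA9, 38.5% overlaps ARHGEF39 on the other strand, from which reads there cannot be told apart.

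The second membrane carbonic anhydrase was arranged differently. CA12 (ENSG00000074410, chr15:63321378-63382161) was at 190.0 CPM in parental cells and 120.1, 97.5 and 113 CPM in clone 1, the library labelled clone 5 and clone 6. The clones were close to each other and all below the parental library, at a fitted log2 fold change of -0.79 (standard error 0.28, edgeR adjusted p = 0.402). BNIP3 (ENSG00000176171, chr10:131966455-131982013), a mitochondrial protein of mitophagy, was at 46.9 CPM in parental cells and 124, 34.5 and 30.1 CPM in clone 1, the library labelled clone 5 and clone 6, so that only clone 1 of the 3 was above it. The log2 fold change was 0.43 (standard error 0.91, edgeR adjusted p = 0.880). Rows annotated as pseudogenes of BNIP3 held 0.363% to 4.91% of the counts on the gene and those rows together. Its relative BNIP3L was lower in all clones, with log2 ratios between -0.69 and -0.50.

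ADM (ENSG00000148926, chr11:10304680-10307397), which encodes the vasodilator peptide adrenomedullin, was at 37.9 CPM in parental cells and 40.3, 71.0 and 124.6 CPM in clone 1, the library labelled clone 5 and clone 6. Clone 1 was the lowest of the clones here and fell just below the parental level with library size scaling, and the log2 fold change was 1.05 (standard error 0.65, edgeR adjusted p = 0.595). NDRG1, a stress-responsive protein, and ANKRD37, a small ankyrin repeat protein, were above the parental library in clone 1 (0.45 and 0.40 on the log2 scale) and more than 1.7-fold below it in the other clones. ANKRD37 was at only 1.46 to 5.52 CPM, and 35.2% of its exon length overlaps UFSP2 on the other strand. The histone demethylase KDM3A had log2 ratios of -0.07, -0.62 and -0.60. The collagen prolyl hydroxylase subunits P4HA1 and P4HA2 had ratios between -0.47 and 0.47 and between 0.19 and 0.22.

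A further 35 hypoxia targets had been listed, and all were tested. PFKFB2, GBE1, GYS1 and EGLN2 among them also stand in the lists of other glycolytic isoenzymes, glycogen metabolism or HIF partners. The criterion was met by 7 of them with lower levels and by 0 with higher levels in edgeR, where 7 were lower and 0 higher at an unadjusted p under 0.05. Of all tested genes, 5.34% met the criterion with lower and 4.24% with higher levels. DESeq2's adjusted p called 5 lower and 0 higher, against 3.05% and 3.13% of the genes it tested. Their median log2 ratios were 0.07, -0.29 and -0.14 in clones 1, 5 and 6, with 9, 10 and 9 of the 35 more than 2-fold lower and 7, 3 and 2 more than 2-fold higher (20.2%, 14.7% and 16.7% of all tested genes were lower and 17.1%, 21.3% and 19.3% higher to this degree). STC2, a secreted glycoprotein that is also a stress-response gene, was at 534 CPM in parental cells and 68.6, 24.1 and 18.1 CPM in clone 1, the library labelled clone 5 and clone 6 (log2 fold change -3.85, standard error 0.82, edgeR adjusted p = 0.309). KDM7A, a histone demethylase, was at 39.9 CPM in the parental library and at 4.15, 6.74 and 6.42 CPM in clones 1, 5 and 6 (-2.79, standard error 0.43, edgeR adjusted p = 0.265). ANGPTL4, a lipase inhibitor, was at 9.27 CPM and at 2.92, 1.75 and 0.588 CPM (-2.40, standard error 0.94, edgeR adjusted p = 0.411). VEGFA, MXI1 and DDIT4, also past the criterion, had log2 fold changes of -2.35, -1.89 and -1.63. These 3 were named after their values were seen. VEGFA, the angiogenic growth factor, was at 1216 CPM in the parental library and 251, 205 and 261 CPM in clones 1, 5 and 6. All 7 were lower in clone 1 too, but they had been selected by a fit that includes clone 1. Of the 35 targets, 18 were above and 17 below the parental library in clone 1.

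**Figure D4:**
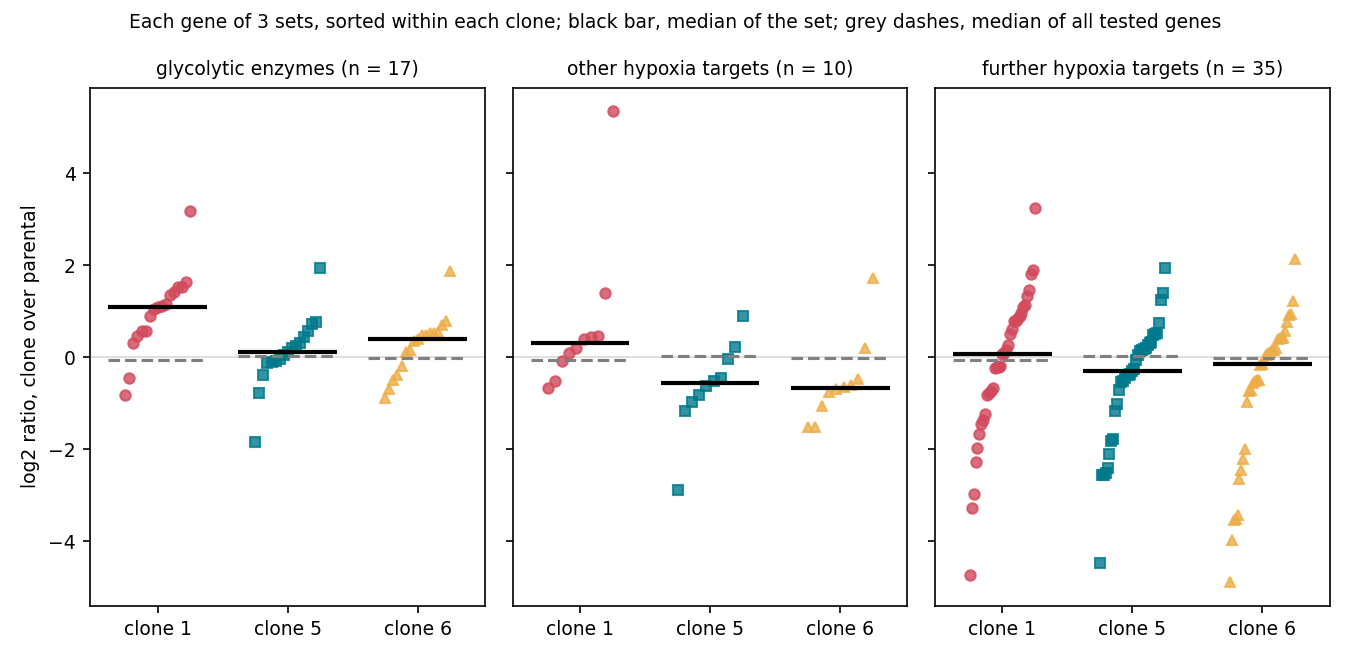
The log2 ratio of each clone to the parental library (y axis) for each gene of 3 sets (panels), sorted within each clone (x axis), with a black bar at the median of the set and grey dashes at the median of all tested genes. The glycolytic enzymes of clone 1 centre on 1.11, the other hypoxia targets have medians below 0 in clones 5 and 6, and the further targets have a tail of low genes in every clone.

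Clone 1 was the highest of the 4 libraries for 24 of the 37 members (64.9%) and for 25.9% of all tested genes, counted after the values were seen. Without clone 1, the criterion was met by 4 members with lower levels (EPAS1, PDK1, NDRG1 and SLC2A3) and 3 with higher levels (ADM, EGLN3 and ALDOC). Of all genes tested without clone 1, 7.34% met it with lower and 8.18% with higher levels. An unadjusted p under 0.05 was then found for 12 members and 21% of all tested genes, and an edgeR adjusted p under 0.05 for 0 members. The median log2 fold change of the glycolytic enzymes was then 0.33 and that of the other hypoxia targets -0.60. EPAS1, SLC2A3 and ALDOC met the criterion with and without clone 1. Both fits share the parental library and the remaining clones, so they are not independent of each other.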

How the data were processed

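Poly(A)-enriched RNA of 4 SUM159 cultures, 1 parental and 3 NOS2KO clones, was made into NEBNext Ultra II libraries and sequenced (paired ends, Illumina HiSeq). The authors deposited raw read counts per gene for 57500 Ensembl identifiers, with exon positions and lengths. The submitters' processing notes name bcl2fastq 2.17, Trimmomatic 0.36, STAR 2.5.2b, featureCounts of Subread 1.5.2, DESeq2 and GRCh38. The strand setting and the treatment of reads with several matches are not given in the sources used here. Symbols came from GENCODE release 29 (56898 identifiers).

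Counts were filtered (filterByExpr by group), scaled by TMM and tested in edgeR 4.0.16 (R 4.3.3) with glmQLFit and glmQLFTest and Benjamini-Hochberg adjustment over 22511 genes. The common dispersion was 0.319, with 2 residual and 2.753 prior degrees of freedom. Each clone's ratio to the parental library has an exact Clopper-Pearson 95% interval, for counting error only. Nothing says that the libraries came from separate experiments beyond the clones themselves, so p-values measure the spread between these 3 lines. The alternatives tried were scaling by RLE, by the upper quartile or by library size alone, omission of the filter, at least 1 CPM in a library, DESeq2 1.42.0, bias-adjusted and robust quasi-likelihood, and each clone left out. Functions were tested on simulated data. For the edgeR fit, recovery of changed genes was required only at a dispersion far below the 0.319 of these data. Promoter windows were read from RefSeq (GRCh38.p14), with 0 starts on chromosome 8, and match 34 of 37 genes. Other steps used Python 3.11.15 (matplotlib 3.10.9, pandas 2.3.3, scipy 1.17.1, numpy 2.4.6).

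The members and lists were chosen with earlier results of these data known. Values in every library are given for members that met the criterion, the 12 with the largest fold change among those with 1 direction in all clones, the 5 with the widest range between clones, HIF1A and EPAS1, and for at most 3 genes of each list. Outside this rule, NOS2, LDHA and VEGFA are also given in every library. Some genes of these lists are not reported here.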

Additional observations from a re-analysis of the deposited data

How the results depend on the processing

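Of 187 values of the 17 named genes under 11 alternatives, 5 changed sign, all on leaving out a clone, and SLC2A3 and ALDOC gained an adjusted p under 0.05 with DESeq2. On leaving out each clone in turn, the log2 fold change ran from -1.70 to 4.38 for CA9, from -0.64 to 0.60 for PFKFB4, from -0.53 to 0.76 for BNIP3 (each lowest without clone 1) and from -0.82 to 0.31 for SLC2A1, which was 0.02 without the library labelled clone 5 and 0.31 without clone 6. The 5 members lower in every clone by over 0.5 on the log2 scale became 3 under RLE, upper quartile and library size scaling, with no filter, with at least 1 CPM in a library and with DESeq2, since HK2 and BNIP3L sat on that line. They ran from 3 to 11 on leaving out a clone, and the 4 higher members from 5 to 8, where fewer clones must pass. By the criterion 2 members were higher under upper quartile scaling, with no filter and with DESeq2, and 1 to 3 on leaving out a clone, while 2 to 4 were lower. DESeq2 gave 2 members with an adjusted p under 0.05, and leaving out a clone gave 0. The median of the other hypoxia targets ran from -0.60 (without clone 1) to 0.07 (without clone 6), and that of the glycolytic enzymes from 0.33 to 0.77. Over all genes, the criterion gave 1202 lower and 955 higher, 1002 and 1124 with upper quartile scaling and 1144 and 1591 with DESeq2, and the median log2 fold change was 0.10, 0.20 with upper quartile scaling and 0.31 with no filter. With edgeR 1 gene in all had an adjusted p under 0.05, 6 with no filter, 5 with the bias-adjusted method and 1095 with DESeq2. No paired analysis was possible because the parental group has 1 library and the clone numbers match no parental number. Depth was not the limit for these genes, since all but CA9 and ANKRD37 had log2 intervals of at most 0.14 to either side. What limits the comparison is the 1 parental library and the differences between clonal lines, which cannot be told apart from the loss of iNOS.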

Other observations

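RPIA, an isomerase of the pentose phosphate pathway, was at 59.8 CPM in the parental library and 34.0, 24.8 and 28.3 CPM in clones 1, 5 and 6 (log2 fold change -1.04, standard error 0.31, edgeR adjusted p = 0.352).

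Of 14 genes for the entry of pyruvate into mitochondria, PDK3, a kinase that inactivates pyruvate dehydrogenase, was higher (5.83 CPM against 12.6, 17.2 and 14.1 CPM, log2 fold change 1.33), and PDP2, a phosphatase that reactivates it, was lower (53.7 CPM against 29.3, 23.1 and 22.5 CPM, -1.10). The related kinases PDK2 and PDK4, named after their values were seen, were also higher in all clones, by at least 0.36 and 1.33 on the log2 scale. PDK1 did not share this direction, with log2 ratios of -0.05, -1.20 and -1.19 in clones 1, 5 and 6. The related phosphatase PDP1 did not share the direction of PDP2, with log2 ratios of -0.23, 0.45 and 0.58 in clones 1, 5 and 6. In glycogen metabolism 1 of 14 tested genes met the criterion, the primer protein GYG1 (35.3 CPM against 72.7, 66.0 and 76.4 CPM, 1.02). Of 13 tested genes for other glycolytic isoenzymes 1 did, BPGM, which makes 2,3-bisphosphoglycerate (10.8 CPM against 22.0, 30.9 and 25.7 CPM, 1.27). Of all tested genes 5.34% met the criterion with lower and 4.24% with higher levels. By the edgeR adjusted p 0 of the genes named here were called at 0.05, though RPIA, PDK3, PDP2, GYG1 and BPGM had an unadjusted p below it, and the DESeq2 adjusted p called PDK3 and BPGM.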
